A study of Mus musculus with 6 samples.

Results

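The genes described here encode the gap junction channels of heart muscle and coronary vessels, Gja1, Gja4, Gja5 and Gjc1, and 6 proteins of the intercalated disc and cell surface that lie near them: the scaffold Tjp1, the ankyrins Ank2 and Ank3, the adhesion receptor Cxadr, and the Popeye proteins Popdc2 and Bves. They were taken by exact gene symbol from the deposited expression table, which held all 10 of them among 24525 gene rows. RNA-seq was made from hearts of mice aged 3 to 6 months, in 3 libraries titled WT (replicates 4, 5 and 6) and 3 titled DKO (replicates 7, 8 and 9). The DKO genotype is given as Mbnl1-/-, Mbnl2cond/cond and Myh6-Cre+/-: as named, it is null for Mbnl1 throughout the animal and conditional for Mbnl2, with Cre driven in cardiomyocytes by the Myh6 promoter. By that genotype other cells of the heart would keep Mbnl2. The labels do not say whether WT animals carried the conditional allele or Cre, nor that libraries came from separate animals, so p-values measure the spread between these libraries. The comparison asks which transcripts differ when both muscleblind RNA-binding proteins are targeted in the heart.

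Connexins assemble into channels that dock between neighbouring cells and pass ions and small molecules, which carries the action potential from cell to cell. Ventricular myocytes use mainly the Gja1 protein, atrial and Purkinje myocytes add Gja5, nodal myocytes use Gjc1, and vessel walls use Gja4, Gja5 and Gjc1. At the intercalated disc the channel plaques are bordered by the zonula occludens scaffold Tjp1 and by ankyrins, which tether channels and transporters to the spectrin skeleton.

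Values are TPM (reads assigned to a transcript divided by its length and scaled to a fixed library total), so levels can be compared between genes. Each difference given is the DKO mean less the WT mean of log2(TPM + 1), a scale that shrinks the change of low genes, and a gene is called higher or lower when its limma p, Benjamini-Hochberg (BH) adjusted over all 14541 genes tested, is under 0.05. Column totals lay between 999963 and 999991 TPM, and the depth behind each value is unknown because TPM keeps no counts. Mbnl1 was lower in each library titled DKO (102 to 108 TPM, where WT had 145 to 161 TPM) and Mbnl2 was higher (227 to 245 TPM, where WT had 149 to 189 TPM), so Mbnl1 transcripts remained in every DKO library and the Mbnl2 gene total goes against the loss named by the genotype. Neither gene total checks the deletion, since it can hold transcript parts outside the deleted exons. Library 7 is DKO by title and source name but WT by its genotype tag, and its Pearson correlation over the tested genes was 0.9512 with DKO 8 and 0.9547 with DKO 9 and at most 0.9392 with any WT library. DKO 7 and DKO 8 held at most 0.355 TPM of Y-linked transcripts and DKO 9 and the WT libraries 163 to 179 TPM. Xist, a transcript of the X chromosome, was at 152 and 174 TPM in DKO 7 and DKO 8. In DKO 9 and the WT libraries Xist was at 0.25 to 0.401 TPM. By these transcripts DKO 7 and DKO 8 read as female and the other libraries as male, so sex also differs between the groups. The 12 cardiomyocyte markers summed to 102000 to 106000 TPM in WT and 95500 to 97500 TPM in DKO, with Myh6 at 10200 TPM or more in every library and 1 marker called higher and 3 lower (0 to 1 and 1 to 5 under other scalings). Macrophage markers gave 2 higher and 1 lower of 5 and summed to 94.7 to 132 TPM in WT and 176 to 237 TPM in DKO, and none of 5 erythroid markers was called (all 5 had an unadjusted limma p under 0.05), at 6040 to 38500 TPM in WT and 1780 to 6760 TPM in DKO; neither list holds any of the 10 genes.

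Gjc1 and Bves were called higher in the libraries titled DKO, and none of the 10 genes was called lower. Both calls were lost with library 7 counted as WT, with a term for Y-linked transcripts, and in 5 (Gjc1) and 4 (Bves) of the 6 fits that left out a library. Gjc1, the connexin of nodal myocytes and vessel walls, rose from 29.7 ± 5.85 to 51.8 ± 4.31 TPM (mean ± SD, n = 3 per group). Bves, a cyclic AMP-binding membrane protein of muscle, rose from 72.05 ± 10.1 to 109 ± 10.5 TPM. The ventricular connexin Gja1 and the scaffold Tjp1 differed between groups by less than the fit could separate from library spread, and Gja5 was lower on average with overlapping values. All 10 genes passed the expression filter of 1 TPM in at least 3 libraries. The count of 2 called among 10 stands beside a background of 10.7% of all tested genes called in either direction (6.51% higher and 4.22% lower). In 3 of the 10, namely Gjc1, Popdc2 and Bves, every DKO value lay above every WT value, which held for 19.1% of all tested genes (33.0% in either direction). An unadjusted limma p under 0.05 was reached by 5 of the 10 genes and by 3921 of the 14541 tested. A positive difference was found for 9 of the 10, with a median of 0.26, against 54.7% of all tested genes and a median of 0.03. Exact two-sided permutation tests of single genes gave 0.1, the smallest p that 3 against 3 libraries allow, for Gjc1, Popdc2 and Bves, and 0.2 to 0.5 for the other genes.

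**Figure D1:**
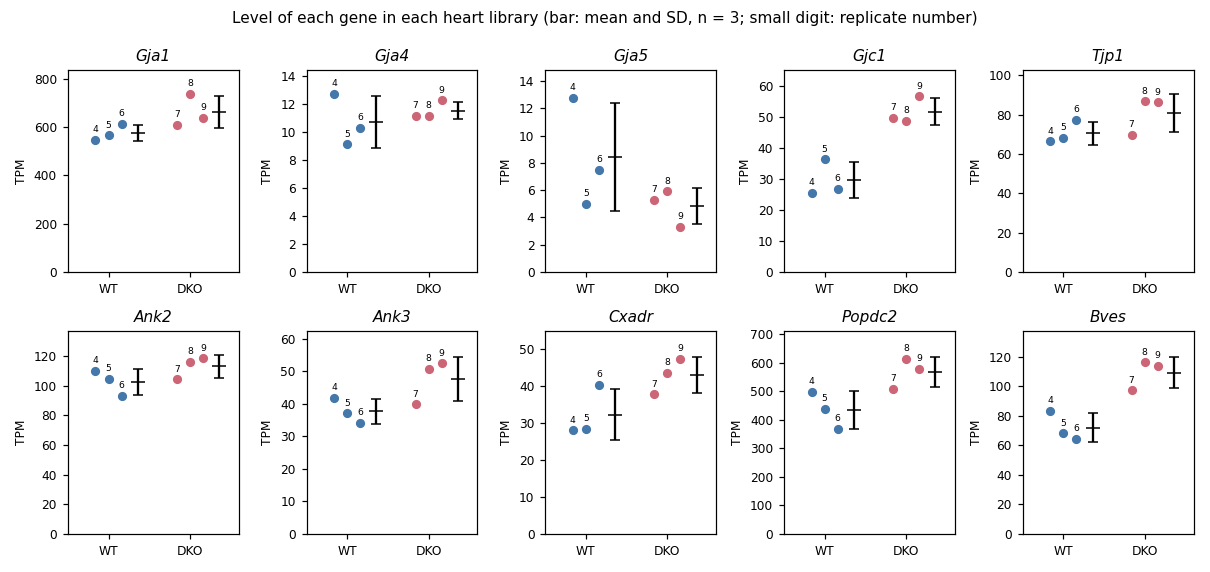
Level in TPM (vertical axes, from 0) of each of the 10 genes in the 3 WT and 3 DKO libraries, 1 point per library with its replicate number, and the mean and SD beside each group. The DKO points of Gjc1, Popdc2 and Bves lie wholly above the WT points, while Gja5 is spread widely in WT because WT 4 had 12.8 TPM.

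The DNA before the annotated start is shown for the connexins that the RefSeq promoter table (build GRCm38.p6) holds, since these genes share a channel structure but differ in level by more than an order of magnitude; 6 of the 10 genes had an entry, and Gjc1, Ank3, Cxadr and Bves had none. Each line is 250 bases ending just before the start site, 5′ to 3′ on the gene's strand, and none of these bases lies in an exon of the GENCODE annotation. The windows are chr10:56377050-56377299 (plus strand) for Gja1, chr3:97032152-97032401 (plus) for Gja5 and chr4:127314040-127314289 (minus) for Gja4. Capitals mark matches on either strand, none of which overlap here, to 6 strings: AGATAA as the core bound by the zinc-finger factors of the GATA family, AAGTG as the core of the homeobox factor Nkx2-5, GGTGTG for T-box factors, CACGTG as an E-box, TGANTCA for the dimers of Jun and Fos, and TATAAA as the core promoter element.
Gja1: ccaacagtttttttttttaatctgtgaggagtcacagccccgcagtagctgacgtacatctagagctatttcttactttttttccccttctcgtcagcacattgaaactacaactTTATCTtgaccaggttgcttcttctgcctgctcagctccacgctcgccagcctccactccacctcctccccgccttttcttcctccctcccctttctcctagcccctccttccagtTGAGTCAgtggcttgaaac
Gja5: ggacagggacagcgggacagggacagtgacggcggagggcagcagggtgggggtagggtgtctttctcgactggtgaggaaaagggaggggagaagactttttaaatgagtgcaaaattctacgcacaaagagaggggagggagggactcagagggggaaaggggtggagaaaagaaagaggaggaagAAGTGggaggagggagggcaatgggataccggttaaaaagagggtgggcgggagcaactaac
Gja4: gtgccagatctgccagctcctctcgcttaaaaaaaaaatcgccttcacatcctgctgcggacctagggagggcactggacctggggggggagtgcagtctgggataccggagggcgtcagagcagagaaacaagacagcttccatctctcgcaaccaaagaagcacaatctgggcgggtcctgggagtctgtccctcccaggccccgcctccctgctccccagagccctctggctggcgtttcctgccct
The Gja1 window held 1 match to AGATAA and 1 to TGANTCA, which 9.99% and 6.75% of 32841 promoter windows of this length also held. Gja5 held 1 match to AAGTG, found in 40.7% of windows. Gja4 held no match to any of the 6 strings, of which GGTGTG occurred in 16.3%, CACGTG in 6.02% and TATAAA in 12.4% of windows. G and C made up 50.0% of the Gja1 window, 56.4% of the Gja5 window and 61.2% of the Gja4 window, against a median of 52.4% over all windows. A match to such a string is a description of the letters and not evidence of binding.

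Gja1 (chromosome 10, 56377300 to 56390419) was the most abundant of the 10 genes in both groups. Its WT libraries 4, 5 and 6 had 547, 565 and 613 TPM and its DKO libraries 7, 8 and 9 had 609, 738 and 639 TPM. DKO 7 lay just under WT 6, so the groups overlapped by a single pair of libraries. The difference was 0.20 (95% interval -0.01 to 0.41; limma, BH adjusted p = 0.208), an interval that holds no change as well as a rise of that upper size, and it was 0.12 without DKO 8.

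Gjc1 (chromosome 11, 102799477 to 102819686) had 25.7, 36.4 and 26.9 TPM in WT 4, 5 and 6. Its DKO libraries 7, 8 and 9 had 49.8, 48.95 and 56.8 TPM. The lowest DKO library thus stood above the highest WT library, WT 5. The difference was 0.80 (SE 0.14, 95% interval 0.46 to 1.14; limma, BH adjusted p = 0.0198), a ratio of means of 1.75. Leaving out WT 4, WT 6, DKO 7, DKO 8 or DKO 9 in turn ended the call (limma, BH adjusted p = 0.0551 to 0.0647) with the difference between 0.71 and 0.84, and leaving out WT 5 kept it (0.0133). DKO 9, the DKO library with Y-linked transcripts, had the highest Gjc1 value of all 6, and against the 3 WT libraries alone it gave a difference of 0.93 (limma, BH adjusted p = 0.206). With a term for Y-linked transcripts the difference was also 0.93 (limma, BH adjusted p = 0.116). Only DKO 7 and DKO 8 nearly lack those transcripts, so this fit too rests on DKO 9 and is not a separate check.

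Markers of the cells that use Gjc1 moved in several directions, and their part in its rise was not tested. Of 13 tested conduction system markers, 6 were called higher and 0 lower, with a median difference of 0.53, and the list summed to 104 to 120 TPM in WT and 176 to 225 TPM in DKO. The calls of Kcne1, Cacna1g and Rgs6 held in all 6 fits that left out a library, while those of Hcn4, Irx3 and Id2 held in 0, 1 and 2 of them. With library 7 counted as WT, 0 of the 14541 tested genes were called higher, so none of these calls held. The nodal transcription factor genes Tbx3 (0.07), Shox2 (0.09) and Tbx18 (-0.44) were not called. Kcne1, a subunit of the slow delayed rectifier, had 0.919 to 2.81 TPM in WT and 14.3 to 23.8 TPM in DKO, and the T-type calcium channel gene Cacna1g had 5.36 to 7.57 and 17.1 to 34.9 TPM. Rgs6, a regulator of G protein signalling in nodal cells, had 9.31 to 11.4 and 19.0 to 23.6 TPM. The nodal transcription factor Isl1 and the sodium channel gene Scn10a did not pass the expression filter. Smooth muscle and pericyte markers gave 1 higher and 2 lower of 9, summing to 720 to 765 TPM in WT and 692 to 885 TPM in DKO. Among them smooth muscle actin Acta2 was higher (66.5 TPM in WT and 227.6 TPM in DKO on average), and transgelin Tagln and the pericyte channel gene Kcnj8 were lower (Kcnj8 in only 2 of 6 fits that left out a library). The median difference of these 9 markers was -0.29, and 2 of them had a positive difference. Myh11 was also called lower under the 3 other scalings (limma, BH adjusted p = 0.0343 to 0.0484). Fibroblast markers gave 5 higher and 0 lower of 9, from 938 to 985 TPM in WT to 1300 to 1570 TPM in DKO. The 4 not called were Tcf21 (0.50), Dcn (0.13), Pdgfra (0.08) and Ddr2 (-0.11). The median difference of these 9 markers was 0.56, and 8 of them had a positive difference. In 5 of the 9 every DKO value lay above every WT value, which held for 19.1% of all tested genes. The Postn and Col3a1 calls held in all 6 fits that left out a library, and those of Col1a2, Col1a1 and Lum in 2, 1 and 1 of them. None of these fibroblast calls held with library 7 counted as WT. In whole heart RNA, more cells of a type and more RNA per cell cannot be told apart.

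Gja5 (chromosome 3, 97032402 to 97053634), the connexin of atrial myocytes, Purkinje fibres and arterial endothelium, was the least abundant of the 10 genes in both groups. WT 4, 5 and 6 had 12.8, 5.01 and 7.51 TPM and DKO 7, 8 and 9 had 5.27, 5.90 and 3.32 TPM. WT 4 stood far above the rest, and WT 5 lay within the DKO range. The difference was -0.64 (95% interval -1.42 to 0.15; limma, BH adjusted p = 0.272), and without WT 4 it was -0.32 (limma, BH adjusted p = 0.536). It was -0.92 without WT 5 (limma, BH adjusted p = 0.132), and -1.04 among libraries with Y-linked transcripts, where DKO 9 is the only DKO library. With a term for Y-linked transcripts, a fit that rests on DKO 9 too, it was also -1.04 (limma, BH adjusted p = 0.341). The ratio of DKO to WT means was 0.573 with 6 libraries and 0.772 without WT 4.

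WT 4 was also the library richest in atrial transcripts. Its level of Myl7, the atrial regulatory light chain, was 932 TPM, whereas WT 5 had 39.4 TPM, WT 6 had 320.0 TPM and the DKO libraries had 82.9 to 172 TPM. Bmp10, a growth factor of atrial myocytes, was at 253 TPM in WT 4 and at 41.7 TPM or less in the other libraries. All 7 atrial markers were tested and 1, the transcription factor gene Nr2f2, was called, as lower, in no fit that left out a library. With Nppa, the natriuretic peptide that dominates the sum, the atrial list ranged from 422 to 6760 TPM in WT and from 2490 to 4210 TPM in DKO. The part of atrial tissue in the Gja5 values was not tested. Exons of Gja5 overlap those of Gpr89 on the opposite strand, which was at 18.7 to 22.9 TPM, and whether strand was used in the quantification is not given in the sources used here.

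Gja4 (chromosome 4, 127311420 to 127314039), a connexin of arterial endothelium and vascular smooth muscle, had 12.7, 9.15 and 10.3 TPM in WT 4, 5 and 6 and 11.2, 11.2 and 12.3 TPM in DKO 7, 8 and 9. All DKO values fell inside the WT range. The difference was 0.11 (95% interval -0.23 to 0.44; limma, BH adjusted p = 0.686), from 0.01 without WT 5 to 0.23 without WT 4. Of 10 endothelial markers 0 were called higher and 2 lower, the angiopoietin receptor relative Tie1 and the endothelial cadherin Cdh5, and of 8 arterial markers only the Notch ligand Dll4 was called, as lower. Each of these calls was held by at most 1 of the 6 fits that left out a library. The endothelial list summed to 900 to 1060 TPM in WT and 835 to 955 TPM in DKO, and the arterial list to 98.5 to 116 and 95.4 to 99.7 TPM.

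The 4 connexins together came to 598 to 658 TPM in WT and 675 to 804 TPM in DKO. Gja1 made up most of that sum in each library, from 91.4% to 93.2% in WT and from 89.8% to 91.8% in DKO. The share of Gjc1 was 4.30%, 5.91% and 4.09% in WT 4, 5 and 6 and 7.37%, 6.09% and 7.98% in DKO 7, 8 and 9. The groups did not overlap, though WT 5 and DKO 8 were close. Gja5 went the other way, with 2.13%, 0.814% and 1.14% in WT and 0.781%, 0.734% and 0.467% in DKO. The mean difference in the Gja5 share was -0.702 percentage points, and -0.317 without WT 4. By TPM, for each Gja5 transcript there were 2.01, 7.26 and 3.59 of Gjc1 in WT 4, 5 and 6 and 9.44, 8.29 and 17.1 in DKO 7, 8 and 9. Gja1 exceeded Gjc1 by 21.3, 15.5 and 22.8 times in WT and by 12.2, 15.1 and 11.3 times in DKO. These shares and ratios are descriptions with no test, since the genes were chosen with their values known.

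**Figure D2:**
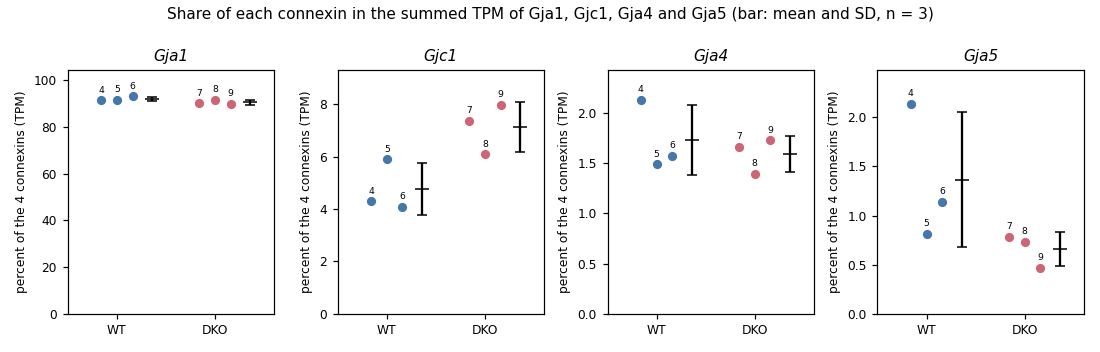
Share of Gja1, Gjc1, Gja4 and Gja5 in their summed TPM (percent, vertical axes from 0) in each library, with replicate numbers and the mean and SD (n = 3) of each group. The Gjc1 share is 4.77% on average in WT and 7.15% in DKO, and the high Gja5 share of WT 4 (2.13%) stands apart.

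Of 18 other connexin and pannexin genes, 12 did not pass the filter, 3 of them (Gja10, Gjb1 and Gjb6) being listed at 0 in all 6 libraries. None of the 6 that were tested was called with limma (1 had an unadjusted p under 0.05). The groups did not overlap in 2 of the 6, which held for 33.0% of all tested genes. Gja3, a connexin best known from the lens, was the most abundant of them at 19.4 ± 1.35 TPM in WT and 22.7 ± 2.16 TPM in DKO, which is above Gja4 and Gja5. The release channel gene Panx1 had 1.24, 1.07 and 2.44 TPM in WT and 4.00, 4.57 and 3.34 TPM in DKO. Its difference of 0.98 came closest to the threshold (limma, BH adjusted p = 0.0509). Panx1 was called higher when rescaled without haemoglobin and short or structural RNA (limma, BH adjusted p = 0.0364), which was 1 of the 3 other scalings. It was also called in 1 of the 6 fits that left out a library. Gja3 and Panx1 were chosen for mention after their values were seen.

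Tjp1 (chromosome 7, 65296165 to 65527850), whose PDZ domains bind the tail of the Gja1 protein at the plaque border, had 66.4, 68.05 and 77.3 TPM in WT 4, 5 and 6. It had 69.8, 86.7 and 86.2 TPM in DKO 7, 8 and 9. DKO 8 and DKO 9 lay above the WT range and DKO 7 within it. The difference was 0.19 (95% interval -0.07 to 0.45; limma, BH adjusted p = 0.317), and 0.29 without DKO 7. The ratio of Gja1 to Tjp1 was 8.16 ± 0.198 in WT and 8.21 ± 0.698 in DKO (n = 3 each), and its ranges overlapped. Of 9 tested genes of connexin scaffolding and traffic, 1 was called higher and 0 lower, with a median difference of 0.07; under the 3 other scalings 2 were higher and 1 or 2 lower. The microtubule plus-end protein gene Mapre1, used in connexin delivery, rose from 28.04 ± 1.69 to 38.5 ± 4.29 TPM (limma, BH adjusted p = 0.0447). The Mapre1 call held without DKO 7 and was lost when any other single library was left out.

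Ank2 (chromosome 3, 126921607 to 127500347) encodes ankyrin-B, which anchors the sodium-calcium exchanger and sodium pump. It had 110.2, 105 and 93.2 TPM in WT 4, 5 and 6 and 104, 116 and 119 TPM in DKO 7, 8 and 9. DKO 7 lay among the WT values. The difference was 0.14 (95% interval -0.07 to 0.35; limma, BH adjusted p = 0.372), and 0.07 without WT 6.

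Ank3 (chromosome 10, 69533486 to 70027436) encodes ankyrin-G, which holds membrane proteins at the disc. Its values were 41.9, 37.1 and 34.1 TPM in WT 4, 5 and 6 and 39.8, 50.7 and 52.5 TPM in DKO 7, 8 and 9, so DKO 7 again fell within WT. The difference was 0.33 (95% interval 0.02 to 0.64; limma, BH adjusted p = 0.167). By TPM, Ank2 exceeded Ank3 by 2.63, 2.82 and 2.74 times in WT and by 2.62, 2.29 and 2.26 times in DKO. The GENCODE annotation lists 27 transcripts for Ank2 and 47 for Ank3, and the deposited value is 1 sum per gene, so a change of exons within either gene would not show here. Ank2 exons also overlap an opposite-strand transcript, Gm16958, which has no row among the deposited values.

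Of 13 tested spectrins and ankyrin adaptors, 2 were called higher and 1 lower, with a median difference of -0.03. The membrane skeleton gene Epb41 had 81.5, 105 and 71.8 TPM in WT and 52.8, 47.1 and 47.4 TPM in DKO (difference -0.78; limma, BH adjusted p = 0.0199), a call lost without WT 4, DKO 8 or DKO 9. Sptbn1, the beta-spectrin partner of ankyrin-B, had 545 ± 16.4 and 670.1 ± 49.4 TPM, and the phosphatase subunit gene Ppp2r5a had 101 ± 5.86 and 126 ± 5.35 TPM. The Sptbn1 call was held by 1 and the Ppp2r5a call by 0 of 6 fits that left out a library.

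Of 11 tested channels and transporters that bind ankyrins, 1 was called higher and 0 lower, with a median difference of 0.02 (limma; 5 had an unadjusted p under 0.05), and 2 higher and 1 lower under each of the 3 other scalings. The ankyrin-B cargo Slc8a1, the sodium-calcium exchanger, had 109 to 118 TPM in WT and 156 to 187 TPM in DKO. Its groups stood well apart, and it was called in all 6 fits that left out a library. With library 7 counted as WT, 0 of all tested genes were called higher, so the Slc8a1 call was lost too.

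Cxadr (chromosome 16, 78301226 to 78359785) encodes the coxsackievirus and adenovirus receptor, an adhesion protein of the disc that also binds Tjp1. It had 28.0, 28.5 and 40.3 TPM in WT 4, 5 and 6 and 37.8, 43.7 and 47.4 TPM in DKO 7, 8 and 9. WT 6 lay inside the DKO range, and the other WT libraries lay below it. The difference was 0.42 (95% interval 0.03 to 0.80; limma, BH adjusted p = 0.153), and without WT 6 it was 0.58 (limma, BH adjusted p = 0.055). Exons of Cxadr overlap Btg3 on the opposite strand, which was at 15.8 to 37.0 TPM. Mesothelial markers, from a cell layer that also carries such junctions, gave 0 limma calls of 5 (1 at an unadjusted p under 0.05) and summed to 14.7 to 46.0 TPM in WT and 14.4 to 19.5 TPM in DKO. Nerve and Schwann cell markers gave 0 limma calls of 5 tested (1 at an unadjusted p under 0.05), with tyrosine hydroxylase Th listed at 0 in all libraries.

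Of 14 tested tight junction and receptor-type adhesion genes, 0 were called higher and 1 lower, with a median difference of 0.16. Esam, an endothelial adhesion molecule related to Cxadr, fell from 86.4 ± 6.81 to 56.5 ± 2.42 TPM (difference -0.60; limma, BH adjusted p = 0.00809). It was called in all 6 fits that left out a library. Under the 3 other scalings 1 or 2 genes of this list were also called higher. The desmosome and adherens list, which lies in the same disc, gave 2 higher and 1 lower of 12: the plakophilin Pkp2 and the catenin Ctnna1 were higher, and desmoplakin Dsp was lower, with the Ctnna1 call held by 1 of 6 such fits and not kept under quantile scaling (limma, BH adjusted p = 0.0666). The median difference was -0.21, and DKO values lay wholly below WT in 5 genes and wholly above in 3. Over all tested genes 13.8% lay wholly below and 19.1% wholly above. Plakoglobin Jup and desmoglein Dsg2 were called lower under all 3 other scalings (limma, BH adjusted p = 0.0305 to 0.0485 and 0.0255 to 0.0348), which gave 2 higher and 3 lower by median ratio, 1 and 3 by quantile, and 2 and 4 when rescaled without haemoglobin and short or structural RNA.

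Popdc2 (chromosome 16, 38362161 to 38378216) encodes a cyclic AMP-binding Popeye protein needed for stress-adapted pacemaking, and was the second most abundant of the 10 genes. WT 4, 5 and 6 had 498, 438 and 367 TPM and DKO 7, 8 and 9 had 508, 614 and 579.6 TPM. The groups did not overlap, though WT 4 and DKO 7 lay close together. The difference was 0.39 (95% interval 0.09 to 0.69; limma, BH adjusted p = 0.0969) and was not called. Exons of Popdc2 overlap those of Gm21987 on the same strand. Gm21987 has no row among the deposited values, so whether reads were split between them cannot be told.

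Bves (chromosome 10, 45335735 to 45372484) encodes the Popeye protein that binds caveolin and is found at lateral membranes and the disc. It had 83.5, 68.1 and 64.5 TPM in WT 4, 5 and 6. In DKO 7, 8 and 9 it had 97.2, 116 and 114 TPM, each above the highest WT library, WT 4. The difference was 0.60 (SE 0.12, 95% interval 0.31 to 0.88; limma, BH adjusted p = 0.0264), a ratio of means of 1.52. The call held without WT 4 or DKO 7 (limma, BH adjusted p = 0.0239 and 0.0413) and was lost without WT 5, WT 6, DKO 8 or DKO 9 (0.0751 to 0.0882), with the difference between 0.52 and 0.71 over these fits. DKO 9 alone against the WT libraries, all with Y-linked transcripts, gave a difference of 0.66. A fit with a term for those transcripts, which rests on DKO 9 too, gave the same difference (limma, BH adjusted p = 0.175).

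Within each library Popdc2 exceeded Bves by 5.96, 6.44 and 5.69 times in WT and by 5.23, 5.28 and 5.08 times in DKO. Bves made up 13.1% to 14.2% of the summed Popdc2, Bves and Popdc3 transcripts in WT and 15.3% to 15.7% in DKO. Popdc3, the remaining Popeye gene, had 29.4, 14.8 and 22.4 TPM in WT and 29.0, 27.2 and 30.6 TPM in DKO and was not called (limma, BH adjusted p = 0.292). Of the 8 genes of the Popeye family and its partners, 1 was called higher and 0 lower, with a median difference of -0.10. DKO values lay wholly below WT in 4 of these genes and wholly above in 1, against 13.8% and 19.1% of all tested genes. The phosphodiesterase gene Pde4a was called lower under all 3 other scalings (limma, BH adjusted p = 0.0322 to 0.0441), so that median-ratio scaling gave 0 higher and 1 lower. Cav3, the muscle caveolin, had 70.4, 58.8 and 62.7 TPM in WT and 83.2, 79.4 and 81.6 TPM in DKO. Its call (limma, BH adjusted p = 0.0447) was held by 1 of 6 fits that left out a library and lost with median-ratio scaling (limma, BH adjusted p = 0.0643). The two-pore potassium channel gene Kcnk2, whose product binds Popeye proteins, was at 3.27 TPM or less in every library and was not called.

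**Figure D3:**
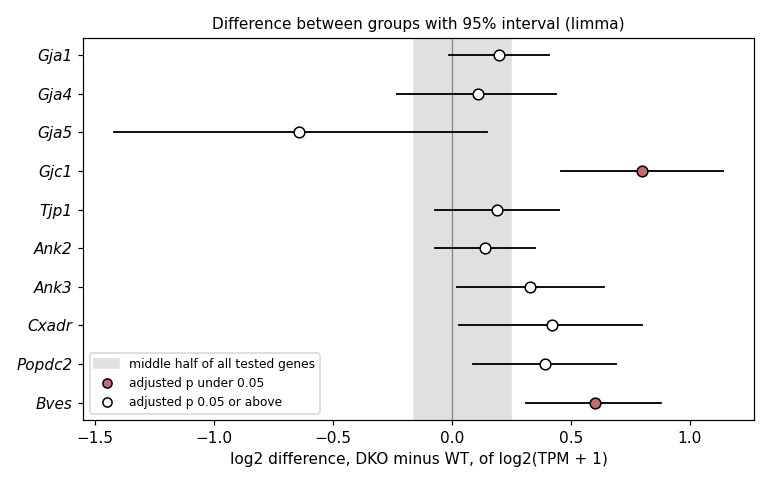
Difference of each gene between groups (DKO minus WT, log2(TPM + 1) scale, horizontal axis) as points with 95% intervals from limma, filled where the BH adjusted p was under 0.05, over a grey band from the lower to the upper quartile of all 14541 tested genes (-0.16 to 0.25). Gjc1 (0.80) and Bves (0.60) are filled, and Gja5 is the only gene with a negative difference.

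**Figure D4:**
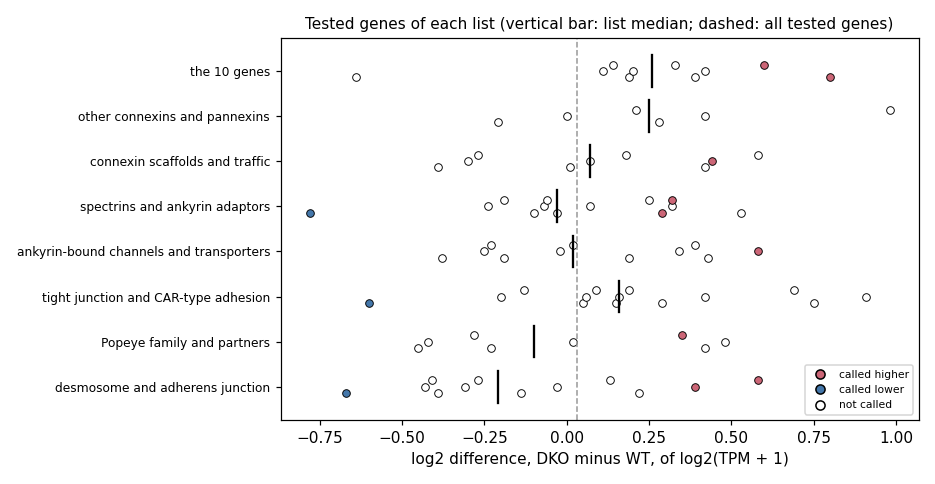
Difference of each tested gene (DKO minus WT, log2(TPM + 1) scale, horizontal axis) in the 10 genes and in 7 related lists, 1 point per gene, coloured where called, with the list median as a bar and the median of all tested genes (0.03) as a dashed line. Epb41 (-0.78) is the lowest point and each list holds at most 3 called genes.

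By level, the 10 genes ran in WT from Gja1 through Popdc2, Ank2, Bves, Tjp1, Ank3, Cxadr, Gjc1 and Gja4 to Gja5. The ranges of neighbours overlapped between Bves and Tjp1, Ank3 and Cxadr, Cxadr and Gjc1, and Gja4 and Gja5, so these pairs were not separated by more than library spread. In DKO Gjc1 stood in sixth place, ahead of Ank3 and Cxadr, where it was eighth in WT. Neighbours in DKO overlapped between Gja1 and Popdc2, Ank2 and Bves, Gjc1 and Ank3, and Ank3 and Cxadr. Within libraries, Gja1 stood above Popdc2 and Ank3 above Cxadr in all 3, while Ank2 stood above Bves and Gjc1 above Ank3 in 2. In DKO Gja4 stood clear of Gja5 by 2.39 times, against 1.27 times with overlap in WT.

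In Gja1, Tjp1, Ank2, Ank3, Cxadr, Popdc2 and Bves, DKO 7 was the lowest of the DKO libraries. The 10 genes summed to 1426, 1361 and 1335 TPM in WT 4, 5 and 6 and to 1532, 1832 and 1710.0 TPM in DKO 7, 8 and 9. Counting library 7 as WT, as its genotype tag has it, left 0 of the 10 called, with Gjc1 at 0.64 and Bves at 0.57 (limma, BH adjusted p = 0.501 for both).

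**Figure D5:**
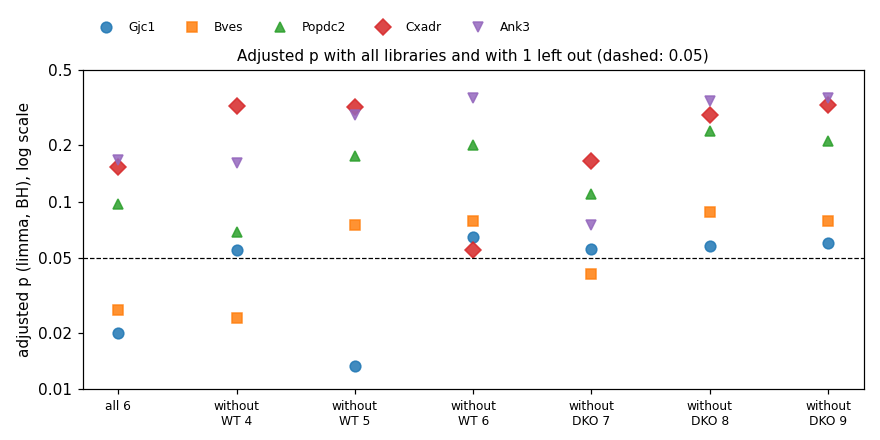
BH adjusted p from limma (vertical axis, log scale) of Gjc1, Bves, Popdc2, Cxadr and Ank3 with all 6 libraries and with each library left out in turn, against a dashed line at 0.05. Gjc1 stays under the line only without WT 5, Bves without WT 4 or DKO 7, and Popdc2, Cxadr and Ank3 are above it in every fit.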

How the data were processed

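Total RNA of heart tissue was sequenced from stranded libraries as read pairs, per the labels (2 reads of 75 bases). The authors deposited 1 table of TPM values per gene and library. The tools named in the submitters' processing notes are bcl2fastq and kallisto 0.44.0, and the build is mm10; not given in the sources used here are the annotation, the strand setting and how transcripts became genes. TPM is relative to the library total, so abundant RNAs shift all other values. Groups follow the sample titles.

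Every gene that reached 1 TPM in 3 or more of the 6 libraries was fitted with limma 3.58.1 in R 4.3.3 (lmFit, eBayes with trend, pseudocount 1, no covariate), BH adjusted over all genes tested. The fit was tested on simulated data with 200 changed genes. It called 62% of 2-fold and 20% of 1.5-fold changes, with 8 false among 90 calls, so a gene not called may still differ. The simulation changed 200 of 14541 genes while the real fit called 1560, so these rates need not hold for the real data. Tables and figures used python 3.11.15, pandas 2.3.3 and matplotlib 3.10.9. Positions come from RefSeq on GRCm38 (mm10), matched by symbol for all 10 genes.

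The 10 genes, related lists and marker lists were chosen with earlier results of these data known. Named genes are these 10, Mbnl1 and Mbnl2, up to 4 called genes of each related list and up to 3 of each marker list by smallest p, and markers listed at 0. Gja3, Panx1, Popdc3, Kcnk2, Isl1, Scn10a, Hcn4, Irx3, Id2, Tbx3, Shox2, Tbx18, Col1a1, Lum, Tcf21, Dcn, Pdgfra, Ddr2, Myh11, Jup, Dsg2, Pde4a, Myh6, Myl7, Bmp10, Nppa and overlapping genes were added after their values were seen. Some genes of the related lists are not reported here and were left out of their counts. Alternatives were other pseudocounts, filters and scalings, no trend, array weights, library 7 as WT, a term for Y-linked transcripts, libraries with those transcripts alone, and each library left out.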

Additional observations from a re-analysis of the deposited data

How the results depend on the processing

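Of the 10 genes, 2 were called with all libraries. The count was 1 without trend in eBayes (Gjc1; Bves had a limma, BH adjusted p = 0.0538), 0 with library 7 counted as WT, 0 with a term for Y-linked transcripts, 0 when restricted to libraries with Y-linked transcripts, and 0 to 1 when single libraries were left out; it stayed at 2 with the other pseudocount, filters, scalings and array weights. Over all genes, 1560 were called, against 1 with library 7 as WT, 92 with the Y-linked term, 12 when restricted to libraries with Y-linked transcripts, and 622 to 877 with a library left out. With library 7 as WT that 1 gene was lower, so no gene called higher here, in any list, kept its call. Gjc1 and Bves each lost their call in 8 of 17 alternatives and kept their direction in all of them. The other 8 genes were called in none and kept their direction. Fits with fewer libraries or a further term have fewer residual degrees of freedom, and with DKO 9 as the lone DKO library its spread is assumed to equal that of WT. The fit with the Y-linked term also rests its group difference on DKO 9, since only DKO 7 and DKO 8 nearly lack those transcripts. It and the fit on libraries with Y-linked transcripts are therefore not separate checks. The difference in the Gjc1 share of the 4 connexins ranged from 1.96 to 2.95 percentage points when single libraries were left out, and that of Gja5 from -0.977 to -0.317. No paired analysis was possible because the groups share no replicate number. TPM keeps no counts, so what depth limits could not be computed.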
